A study of Homo sapiens with 12 samples.

Results

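The comparison described here is the interaction between TRPML3 and serum withdrawal in HEK293T, a widely used cell line from human embryonic kidney. It is the starved minus fed difference in cells with TRPML3, less the same difference in cells with the control vector, on the log2 scale. All 12 RNA sequencing libraries of the study enter it, in 4 groups of 3 biological replicates, and every one of the 41878 gene rows was considered, of which 18030 had enough counts to be tested. The groups were vector fed, vector starved, TRPML3 fed and TRPML3 starved. Every culture had been transfected with 1 µg of plasmid using Effectene, the control groups with the control vector. Fed cells stayed in 10% serum, and starved cells were kept in 0% serum for 4 h before RNA was taken, a treatment meant to induce autophagy. The transfection was of whole cultures, the promoter of the plasmids is not given in the sources used here, and polyadenylated RNA was sequenced. A positive interaction means that a gene's response to starvation was shifted upward in TRPML3 cells, and a negative one that it was shifted downward.

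TRPML3, encoded by MCOLN3, is a cation channel of endosomes, lysosomes and autophagosomes that releases calcium into the cytosol. When nutrients or growth factors are withdrawn, the kinase mTORC1, which works at the lysosome surface, becomes less active. The MiT/TFE transcription factors (TFEB, TFE3 and MITF) are then dephosphorylated, in part by the calcium-dependent phosphatase calcineurin, and enter the nucleus. There they bind an E-box called the CLEAR element in promoters of lysosome and autophagy genes. A calcium channel of the lysosome can therefore be asked to alter the transcriptional response to starvation, and the interaction is the contrast that addresses that question.

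The 8-base core of the CLEAR element, TCACGTGA, which reads the same on both strands, was searched in RefSeq promoters (GRCh38.p14, 250 bases before to 50 bases after the annotated start). It stood in 283 of 27305 promoters, or 1.04%. Of the lysosome genes on the list used below, 25 had a promoter in that table and 5 of these held it (20%), and of the autophagy genes 1 of 39 did (2.56%). A match is only a stretch of letters and no measured binding site. The windows of 4 lysosome genes are shown, those in which the whole motif lies before the annotated start, while in the fifth, CLN3, it spans the start. They are LAMP1 (a major lysosomal membrane glycoprotein), CTSA (cathepsin A), GAA (acid alpha-glucosidase) and ATP6V0D1 (a subunit of the membrane part of the proton pump), with the motif in capitals.
LAMP1, chr13:113297199-113297228, plus strand: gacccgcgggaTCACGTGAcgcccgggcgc
CTSA, chr20:45891298-45891327, plus strand: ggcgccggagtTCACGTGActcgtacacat
GAA, chr17:80101493-80101522, plus strand: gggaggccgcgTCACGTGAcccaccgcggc
ATP6V0D1, chr16:67481199-67481228, minus strand: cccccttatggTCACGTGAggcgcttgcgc

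Library totals ran from 33101540 to 43700547 counts. Of the HEK293T markers PAX2, LHX1, VIM, KRT8, KRT18, NEFM, NEFL, CDH2 and EYA1, all had counts in every library, with PAX2 (median 3.42 CPM, counts scaled to a common library total) and LHX1 (3.15 CPM) low. HBB, TTR, APOB and UMOD, which mark blood, liver and mature kidney tubule, were at 0 in all libraries, whereas COL3A1 (14.1 to 22.7 CPM) and LRP2 (9.85 to 27.2 CPM) were present. The 4 libraries of replicate number 3 stood apart. Their mean rank correlation across genes went against the serum label in both fed groups. For vector fed 3 it was 0.936 with vector fed 1 and 2, and 0.951 with vector starved 1 and 2. For TRPML3 fed 3 it was 0.935 with TRPML3 fed 1 and 2, and 0.945 with TRPML3 starved 1 and 2. For vector starved 3 the values were 0.939 with its own group and 0.935 with vector fed 1 and 2, and for TRPML3 starved 3 they were 0.93 and 0.932. Sample quality weights in limma voom were 0.498 to 0.563 for the number 3 libraries and 1.09 to 1.67 for the others. The labels were used as deposited. Whether the serum labels of number 3 are right was not tested, and exchanged labels would reverse the sign of every interaction taken from that number. Values without number 3 are therefore given beside several results that move with it, though not beside every gene.

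The level of the transfected gene itself differed between the groups that the interaction compares. MCOLN3 (ENSG00000055732, chromosome 1, 85018082 to 85048499 in GRCh38, minus strand) had 17.3, 12.3 and 18.4 CPM in vector fed libraries and 9.31, 9.63 and 14.4 CPM in vector starved libraries. CPM here and below use library sizes scaled by TMM, edgeR's correction for composition. With the TRPML3 plasmid it had 6211, 4929 and 39972 CPM when fed and 41362, 58223 and 16896 CPM when starved. All 6 TRPML3 libraries were above all 6 vector libraries, and within TRPML3 cells the fed and starved groups overlapped, because number 3 ran opposite to numbers 1 and 2. Its interaction was 1.72 ± 1.00 (log2, SE; unadjusted p = 0.116, edgeR quasi-likelihood test). It was 3.57 and 3.89 in numbers 1 and 2 taken alone, and -0.91 in number 3. Without number 3 it was 3.80 (edgeR unadjusted p = 3.49e-05, adjusted p = 0.163), and the DESeq2 Wald test on the same 8 libraries called it (3.79, adjusted p = 1.37e-13). Counts from the plasmid and from the cell's own gene share 1 row. Within each replicate number the level of channel RNA differed between fed and starved cells, and its part in the other genes' values was not tested.

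No gene's response to starvation passed the test for a difference between TRPML3 and vector cells. At an adjusted p under 0.05 edgeR's quasi-likelihood test called 0 of 18030 genes (0%), and the smallest adjusted p was 0.978. At an unadjusted p under 0.05 there were 374 genes, or 2.07% of those tested. Of these, 209 had an interaction above 0 (1.16%) and 165 below 0 (0.915%). The DESeq2 Wald test called 27 of 17958 genes (0.15%), 15 above and 12 below 0, and had 530 at an unadjusted p under 0.05. Of those 27, 24 were also at an unadjusted p under 0.05 in edgeR, 10 were at 0 counts in at least 1 library and 9 averaged under 5 CPM. The median standard error of an interaction was 0.632 (log2) against 0.447 for starvation within vector cells, since 4 group means enter it. For 3155 genes (17.5%) the 95% interval of the interaction lay within 1 log2 unit of 0 on both sides, so a change of more than 2-fold in the response lay outside the interval for those genes only.

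The 3 replicate numbers were also set against each other, each giving an interaction from its own 4 libraries as log2(CPM + 1). Fed and starved libraries were joined there only by the number in their labels. Their deviations from the group means did not go together (r from -0.0864 to 0.00933). Of all tested genes, 4724 (26.2%) had the same sign in all 3, and among the 10813 genes averaging at least 5 CPM it was 2942 (27.2%). Across those 10813 genes, which are not independent and share libraries and depth, Pearson's r was 0.03 between numbers 1 and 2, 0.022 between 1 and 3, and -0.02 between 2 and 3. Genes with a high interaction in 1 number were thus hardly more often high in another. The SD of the interaction across these genes was 1.206, 1.181 and 1.164 in numbers 1, 2 and 3.

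**Figure D1:**
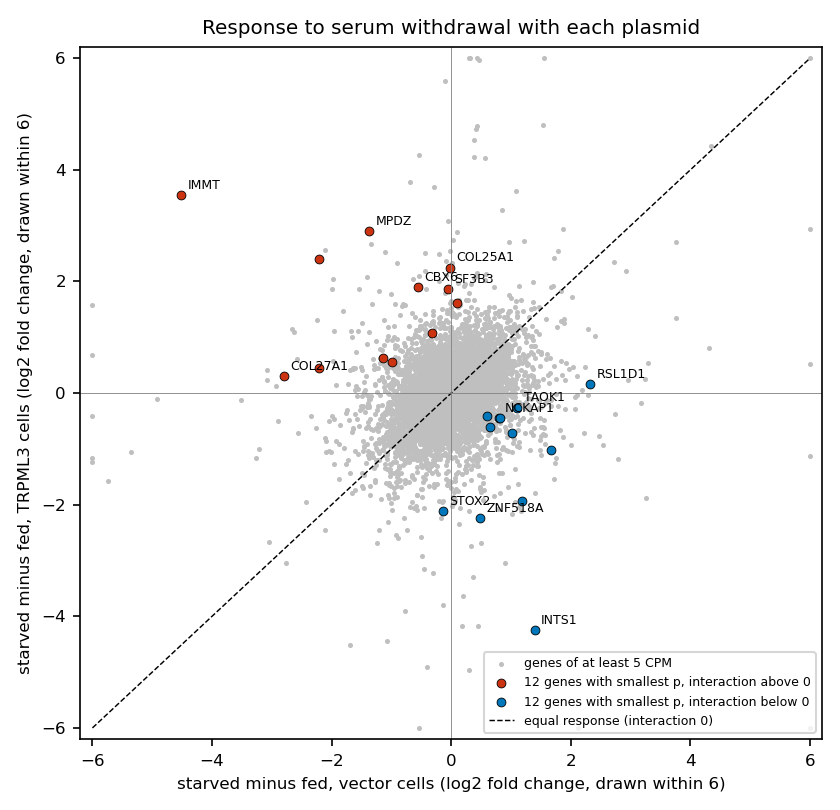
Log2 fold change on starvation in TRPML3 cells (vertical) against that in vector cells (horizontal) for genes averaging at least 5 CPM (grey), with values beyond 6 in size drawn at 6. The 12 genes with the smallest interaction p on each side are coloured, and they lie off the dashed line of equal response because they were picked for that distance.

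The genes below were taken by p value from those averaging at least 5 CPM with the same sign in all 3 numbers, 12 in each direction. None of the 24 passed edgeR's quasi-likelihood test over all genes (adjusted p of 0.978 for RSL1D1 and 1 for the rest), and 13 of them were among the 27 calls of the DESeq2 Wald test. In bulk RNA, a change in the number of cells carrying a transcript and a change per cell cannot be told apart.

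Several genes with a negative interaction were low in vector fed cells and higher in the other 3 groups. RSL1D1 (ENSG00000171490, chromosome 16, 11833850 to 11851585, minus strand), which encodes a nucleolar protein with a ribosomal L1 domain, had 68.7, 60.9 and 74.8 CPM in vector fed libraries. It had 278, 322 and 423 CPM in vector starved, 443, 416 and 507 CPM in TRPML3 fed, and 655, 532 and 343 CPM in TRPML3 starved libraries. All 3 vector fed libraries were below the other 9, and the remaining groups overlapped. The starvation effect was 2.32 ± 0.24 (log2, SE) in vector cells and 0.16 ± 0.23 in TRPML3 cells. Their difference, the interaction, was -2.16 ± 0.33, with a 95% interval of -2.90 to -1.42 and an unadjusted p of 5.42e-05. It was -1.44, -2.03 and -3.05 in numbers 1, 2 and 3, and without number 3 it was -1.75.

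TAOK1 (chromosome 17, 29390464 to 29551904, plus strand), a STE20-family kinase upstream of stress-activated MAP kinases, was also lowest in vector fed cells. It had 130, 134 and 109 CPM in vector fed, 252, 324 and 227 CPM in vector starved, 249, 248 and 304 CPM in TRPML3 fed, and 269, 180 and 218 CPM in TRPML3 starved libraries. Again all 3 vector fed libraries were the lowest of the 12. The interaction was -1.37 ± 0.28 (interval -1.98 to -0.76, unadjusted p = 4.57e-04). NCKAP1 (chromosome 2, 182909115 to 183038858, minus strand) encodes a subunit of the WAVE complex, which drives branching of actin. It had 191, 212 and 186 CPM in vector fed and 367, 282 and 372 CPM in vector starved libraries, then 537, 504 and 466 CPM in TRPML3 fed and 285, 364 and 457 CPM in TRPML3 starved ones. The vector fed libraries were the lowest and the TRPML3 fed libraries the highest of the 12. Its interaction was -1.24 ± 0.26 (interval -1.81 to -0.67, unadjusted p = 5.81e-04).

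In ZNF518A, a zinc-finger gene (chromosome 10, 96129715 to 96205288, plus strand), the TRPML3 groups carried the difference. The levels were 40.3, 68.9 and 65.6 CPM in vector fed, 88, 85.5 and 71.1 CPM in vector starved, 175, 182 and 106 CPM in TRPML3 fed and 21.8, 55.7 and 20.3 CPM in TRPML3 starved libraries. TRPML3 fed libraries were the highest of the 12. Starvation went with 0.48 ± 0.39 (log2) in vector cells and -2.24 ± 0.41 in TRPML3 cells, and the interaction was -2.72 ± 0.56 (unadjusted p = 5.74e-04). STOX2 (chromosome 4, 183797692 to 184023526, plus strand) was lowest in starved TRPML3 cells. It had 22.2, 27.1 and 18.8 CPM in vector fed, 15.8, 22 and 24.2 CPM in vector starved, 16.7, 8.57 and 19.5 CPM in TRPML3 fed, and 3.45, 3.23 and 3.65 CPM in TRPML3 starved libraries. The last 3 were below all others, and the interaction was -1.98 ± 0.46 (unadjusted p = 0.00134).

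The other 7 genes on this side were ZNF652, MYO6, ZC3H11A, SELENOI, ZNF18, PRPF3 and INTS1, with interactions from -5.64 to -1.01. MYO6, the myosin that moves toward the minus end of actin filaments, had -3.12 ± 0.83. Its levels were 20.9, 47.7 and 14.1 CPM in vector fed and 26.0, 71.0 and 90.5 CPM in vector starved libraries. With TRPML3 they were 137, 88.4 and 50.9 CPM when fed and 13.9, 29.9 and 28.2 CPM when starved. The vector starved libraries overlapped those of every other group, while the fed groups did not overlap each other. ZC3H11A, a zinc-finger protein of mRNA export, had -1.27 ± 0.34. SELENOI, an ethanolamine phosphotransferase of the selenoprotein family, had -1.01 ± 0.28. INTS1, the scaffold subunit of the Integrator complex, had -5.64 ± 1.67, with low libraries in 3 groups. It had 1.72, 1.62 and 2.20 CPM in TRPML3 starved libraries, but also 1.84 CPM in vector fed 1 and 1.22 CPM in TRPML3 fed 2, against 24 to 73.5 CPM in the other 7. Without number 3, INTS1 had -4.93 (edgeR unadjusted p = 0.0989, against 0.0064 with all 12 libraries). ZNF652 then had -2.43 (edgeR unadjusted p = 0.0492, against 0.00215).

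**Figure D2:**
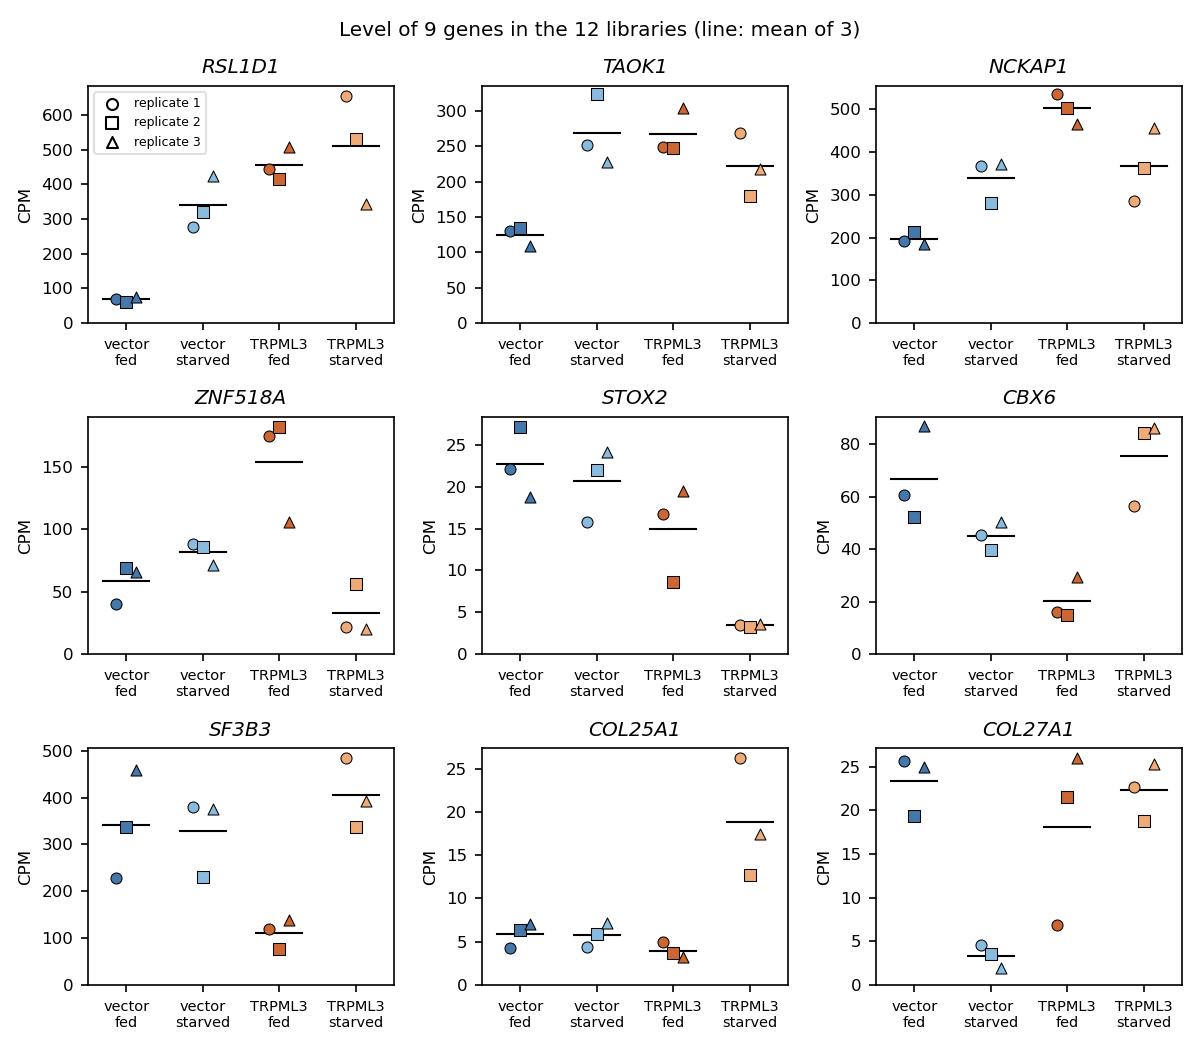
CPM (vertical, linear axis from 0) of 9 genes in the 4 groups, 1 point per library with a marker for each replicate number and a line at the mean of 3. RSL1D1 and TAOK1 have their 3 lowest points in vector fed cells, CBX6 and SF3B3 in TRPML3 fed cells, COL27A1 in vector starved cells and STOX2 in TRPML3 starved cells.

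Of the 12 genes with a positive interaction, CBX6, SF3B3, VPS4A and FAM133B were lowest in TRPML3 fed cells. CBX6 (ENSG00000183741, chromosome 22, 38861450 to 38872314, minus strand), a chromobox protein of Polycomb repressive complex 1, had 60.8, 52.4 and 86.9 CPM in vector fed and 45.6, 39.6 and 50.3 CPM in vector starved libraries. It had 16.2, 15.0 and 29.5 CPM in TRPML3 fed and 56.3, 84.2 and 86.4 CPM in TRPML3 starved libraries. The 3 TRPML3 fed libraries were the lowest of the 12. Starvation went with -0.56 ± 0.31 (log2) in vector cells and with 1.90 ± 0.32 when TRPML3 was present. The interaction was 2.47 ± 0.44 (interval 1.49 to 3.44, unadjusted p = 1.87e-04), it was 2.15, 2.81 and 2.29 in the 3 numbers, and 2.58 without number 3.

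SF3B3 (chromosome 16, 70523788 to 70577670, plus strand), a subunit of the SF3b complex that recognises the branch point in splicing, also had its lowest libraries in TRPML3 fed cells. It had 229, 338 and 460 CPM in vector fed, 379, 231 and 377 CPM in vector starved, 119, 75.8 and 140 CPM in TRPML3 fed and 486, 338 and 393 CPM in TRPML3 starved libraries, with an interaction of 1.92 ± 0.44 (unadjusted p = 0.00121). VPS4A (chromosome 16, 69311356 to 69326939, plus strand) is the ATPase that takes ESCRT-III filaments apart on endosomes. It had 126, 103 and 154 CPM in vector fed, 128, 88.6 and 90.8 CPM in vector starved, 56.9, 76.8 and 59.9 CPM in TRPML3 fed and 112, 147 and 148 CPM in TRPML3 starved libraries. Its interaction was 1.39 ± 0.32 (unadjusted p = 0.00125), or 1.03 without number 3 (edgeR unadjusted p = 0.0368). FAM133B was both lowest in TRPML3 fed libraries (40.4, 26.7 and 23.9 CPM) and highest in TRPML3 starved ones (86.9, 86.9 and 104 CPM), with 48.5 to 78.2 CPM in the 6 vector libraries and an interaction of 1.51 ± 0.36.

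A pair of collagen genes had other patterns. COL25A1 (chromosome 4, 108808725 to 109302752, minus strand), a transmembrane collagen, had 4.31, 6.33 and 7.09 CPM in vector fed, 4.33, 5.88 and 7.18 CPM in vector starved, 4.94, 3.67 and 3.23 CPM in TRPML3 fed, and 26.2, 12.7 and 17.5 CPM in TRPML3 starved libraries. The TRPML3 starved libraries were the highest of the 12, and the interaction was 2.28 ± 0.49 (unadjusted p = 8.26e-04). COL27A1 (chromosome 9, 114155560 to 114312511, plus strand), a fibrillar collagen, was instead low in vector starved cells. It had 4.55, 3.53 and 1.98 CPM there, against 25.7, 19.3 and 24.9 CPM in vector fed, 6.87, 21.5 and 26.0 CPM in TRPML3 fed and 22.7, 18.8 and 25.3 CPM in TRPML3 starved libraries. Its starvation effect was -2.80 ± 0.48 (log2) in vector cells and 0.30 ± 0.45 in TRPML3 cells, an interaction of 3.10 ± 0.65 (unadjusted p = 6.84e-04). EXOG, a mitochondrial nuclease, was likewise lowest in vector starved cells (2.11, 6.95 and 3.98 CPM against 8.38 to 23.5 CPM in the other 9), with an interaction of 2.66 ± 0.65.

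The remaining positive genes were IMMT, MPDZ, HLCS, CCDC174 and CRYBB2P1. IMMT, the core of the MICOS complex of mitochondrial cristae, had the largest fitted value among the 24 (8.06 ± 1.66, unadjusted p = 5.65e-04) and very uneven replicates. It had 141, 58.0 and 7.98 CPM in vector fed and 99.0, 5.27 and 143 CPM in TRPML3 starved libraries, against 2.03 to 9.10 CPM in the 6 libraries of the other groups, so the groups overlapped. MPDZ, a scaffold protein with many PDZ domains, had 39.0, 20.6 and 4.49 CPM in TRPML3 starved libraries and 4.27 ± 1.00. The last of these levels lay below the vector fed libraries (5.11, 10.4 and 11.6 CPM). HLCS, the enzyme that attaches biotin to carboxylases, had 4.62 ± 1.11, with uneven vector fed libraries (31.8, 3.31 and 7.66 CPM). Its interaction was 6.25, 0.83 and 2.78 in numbers 1, 2 and 3, and 2.38 without number 1. CRYBB2P1 is a pseudogene of a lens crystallin, and its counts (1.54 ± 0.40) may be shared with its near-identical parent gene.

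**Figure D3:**
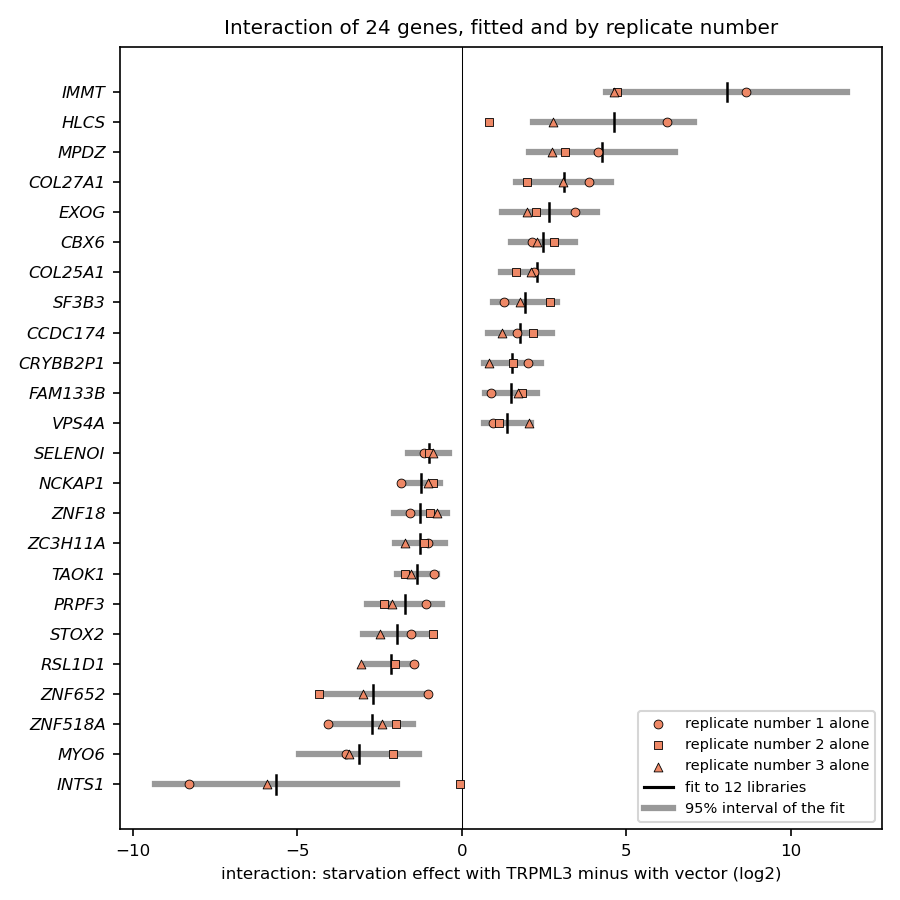
Interaction (log2, horizontal) of the 24 genes with the smallest p in each direction, with the fit to 12 libraries (black), its 95% interval (grey) and the value from each replicate number alone (markers). For each gene the 3 markers are on 1 side of 0, which the choice of genes required, and for RSL1D1 they run from -3.05 to -1.44.

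The pattern in which a whole group of 3 libraries lay outside the other 9 was counted over the 10813 genes averaging at least 5 CPM. Vector fed libraries were lowest for 43 genes (0.398%) and highest for 22 (0.203%). Vector starved libraries were lowest for 37 (0.342%) and highest for 53 (0.49%). TRPML3 fed libraries were lowest for 49 (0.453%) and highest for 68 (0.629%), and TRPML3 starved libraries were lowest for 37 (0.342%) and highest for 57 (0.527%). In all, 358 of the 10813 genes had a group apart, and 65 of those were among the 215 at an unadjusted p under 0.05 for the interaction. Of the 24 genes above, 14 had a group apart. A group apart is itself close to an interaction, and the 24 were picked by interaction p, so both overlaps were favoured in advance. Starvation effects of opposite sign with the 2 plasmids were seen in 85.1% of the 215 genes of at least 5 CPM at an unadjusted p under 0.05, against 33.9% of all genes of that level, and a selection on the difference favours opposite signs.

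Part of the DESeq2 calls came from rows that were on in some libraries and at or near 0 in others. HSPE1-MOB4, a readthrough of 2 neighbouring genes, was listed at 0 in 9 of the 12 libraries and had 42.8 and 103 CPM in vector starved 2 and 3 and 38.4 CPM in TRPML3 fed 3. COMMD3-BMI1, another readthrough, had 26.5 and 37.0 CPM in vector starved 1 and 2 and 20.5 CPM in TRPML3 fed 2, and at most 0.146 CPM in the other 9. GAB2, an adaptor of growth factor receptors, was at 0 in all 3 vector starved libraries and had 22.7, 25.1 and 13.1 CPM in vector fed libraries. In TRPML3 cells GAB2 had 16.4 CPM in fed 2 and 26.3 CPM in starved 3, and at most 0.0326 CPM in the other 4. CIR1, a corepressor in Notch signalling, had 141, 66.9 and 27.0 CPM in vector fed and 0.637, 0.615 and 1.06 CPM in vector starved libraries. With TRPML3, CIR1 had 59.2, 1.07 and 0.783 CPM when fed and 54.8, 126 and 1.33 CPM when starved.

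SENP3-EIF4A1, a readthrough as well, had 239 to 376 CPM in 5 libraries and was listed at 0 in the other 7. EIF4A1, an RNA helicase of translation initiation whose locus the readthrough contains (chosen after its values were seen), had 321 to 376 CPM in the 5 libraries with counts for the readthrough and 663 to 1430 CPM in the 7 without. The counts of the overlapping rows thus moved against each other. Of the 10813 genes of at least 5 CPM, 136 (1.26%) were at 0 in at least 1 library, and 101 of those had 20 CPM or more in another.

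Lysosome genes, the established targets of MiT/TFE factors, showed no called interaction. Of 40 lysosome genes tested, 0 were at an unadjusted p under 0.05 in either direction, against 2.07% of all genes. Their median interaction was -0.062 (log2), against 0.00 for all genes. For 19 of the 40 the 95% interval lay within 1 log2 unit of 0. LAMP1 had 29.7, 43.1 and 32.7 CPM in vector fed, 51.2, 53.2 and 35.6 CPM in vector starved, 32.0, 41.3 and 47.3 CPM in TRPML3 fed and 54.1, 44.8 and 34.9 CPM in TRPML3 starved libraries. All 4 groups overlapped, and the interaction was -0.26 ± 0.37 (interval -1.07 to 0.56). Of the other genes whose promoter windows are printed above, CTSA had -0.01 ± 0.35, GAA 0.26 ± 0.38 and ATP6V0D1 -0.59 ± 0.30 (interval -1.26 to 0.09, unadjusted p = 0.0815), the smallest p of the list. Without number 3, ATP6V0D1 had -0.80 (edgeR unadjusted p = 0.0309), so the count of 0 lysosome genes at an unadjusted p under 0.05 does not hold there. In that setting 2 of the 40 lysosome genes were under 0.05, against 709 of the 18030 genes tested with all 12 libraries. The 5 lysosome genes with the motif had a median of -0.102 and the others with a promoter -0.062. Among the proteases, CTSD (cathepsin D) had -0.15 ± 0.31, CTSL (cathepsin L) 0.07 ± 0.19 and CTSB (cathepsin B) 0.15 ± 0.55.

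For this list and those below, 1.16% of all genes tested were above and 0.915% below 0 at an unadjusted p under 0.05. Autophagy genes had a median interaction of -0.146 over 44 tested, with 0 at an unadjusted p under 0.05 above 0 and 1 below. That 1 was RB1CC1, the FIP200 subunit of the kinase complex that starts autophagosome formation. It had 119, 67.8 and 82.6 CPM in vector fed, 81.8, 86.5 and 113 CPM in vector starved, 240, 153 and 151 CPM in TRPML3 fed and 119, 81.4 and 45.3 CPM in TRPML3 starved libraries. The TRPML3 fed libraries were the highest of the 12, and the interaction was -1.21 ± 0.50 (unadjusted p = 0.0334), or -0.83 without number 3 (edgeR unadjusted p = 0.156). Its partner ULK1, the kinase itself, had 25.4, 28.5 and 23.8 CPM in vector fed, 23.9, 12.9 and 4.84 CPM in vector starved, 11.2, 3.13 and 12.5 CPM in TRPML3 fed and 15.2, 15.1 and 18 CPM in TRPML3 starved libraries. For ULK1 the interaction was 1.75 ± 0.80 (interval -0.03 to 3.53, unadjusted p = 0.0531). MAP1LC3B, the LC3 protein of the autophagosome membrane, had -0.23 ± 0.33, and SQSTM1, the p62 cargo receptor, -0.48 ± 0.58. Both intervals spanned 0 (-0.96 to 0.50 and -1.77 to 0.81).

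The MiT/TFE factors and the folliculin branch that feeds back on them had 0 of 12 genes at an unadjusted p under 0.05. The median was 0.141, and it was -0.051 without number 3. TFEB had -0.08 ± 0.50, TFE3 0.25 ± 0.33 and MITF 0.03 ± 0.86. FLCN (folliculin) had 0.64 ± 0.61, FNIP1, its partner, -0.37 ± 0.26, and GPNMB, a glycoprotein that MiT/TFE factors induce, 0.54 ± 0.60. These are RNA levels, and the location of the factors in the cell was not measured.

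Among 15 other channels and transporters of endosomes and lysosomes, 0 had an unadjusted p under 0.05 and the median was -0.082, or -0.2 without number 3. MCOLN1 (TRPML1) had 3.79 to 6.48 CPM in vector fed, 4.57 to 8.77 CPM in vector starved, 4.78 to 6.52 CPM in TRPML3 fed and 5.33 to 7.36 CPM in TRPML3 starved libraries, and an interaction of -0.17 ± 0.45. MCOLN2 (TRPML2) had 0.00 ± 0.56 (interval -1.23 to 1.23). CLCN3, an endosomal chloride-proton exchanger, had the smallest p of the group (-0.59 ± 0.33, unadjusted p = 0.105). No interval of these 15 lay wholly within 1 log2 unit of 0.

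Of 32 calcium signalling genes, 0 had an unadjusted p under 0.05, or 2 with the replicate number as a block within serum state (PPP3CA, edgeR unadjusted p = 0.0403, and ORAI1, unadjusted p = 0.0189). With that block, 558 of all 18030 genes were under 0.05. The median was 0.006 (-0.024 with library size as the only scaling), and 13 intervals lay within 1 log2 unit of 0. PPP3CA, a catalytic subunit of calcineurin, had -1.79 ± 1.03, or -0.81 without number 3. NFATC1, a transcription factor that calcineurin activates, had 1.24 ± 0.90, with 3.03, 1.78 and -0.11 in numbers 1, 2 and 3. Without number 3 it had 2.64 (edgeR unadjusted p = 0.0138), and with the plain replicate block its unadjusted p was 0.0479. RCAN1, a calcineurin inhibitor that is itself induced by it, had 0.15 ± 0.33. ORAI1, the pore of the store-operated calcium channel, had 0.92 ± 0.57. With the plain replicate block its edgeR unadjusted p was 0.0252, so that block also gave 2 genes of the list under 0.05.

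The serum response list holds immediate early genes that serum induces, such as EGR1, and other genes, such as CCND1 and ID1. Among 49 tested it had 1 gene above and 1 below 0 at an unadjusted p under 0.05, with a median of -0.15. It was 0.099 without vector fed replicate 3. The gene above 0 was SRF, serum response factor itself. SRF had 65.8, 80.2 and 107 CPM in vector fed, 29.9, 40.2 and 78.1 CPM in vector starved, 64.0, 67.7 and 45.9 CPM in TRPML3 fed and 101, 87.6 and 75.7 CPM in TRPML3 starved libraries. In vector cells the starved and fed groups overlapped, and in TRPML3 cells all 3 starved libraries were above all 3 fed ones. The interaction was 1.34 ± 0.48 (interval 0.28 to 2.41, unadjusted p = 0.0184), or 1.57 without number 3 (edgeR unadjusted p = 0.00185). The gene below 0 was CCN2, a matricellular protein, which was listed at 0 in 9 of the 12 libraries and had 9.87 CPM in vector starved 1, 28.9 CPM in TRPML3 fed 1 and 4.47 CPM in TRPML3 fed 3. The DESeq2 Wald test called CCN2 (adjusted p = 2.67e-12) on those few libraries with counts. EGR1, an immediate early transcription factor, shows the spread in the list (-0.43 ± 1.10). It had 210, 344 and 39.4 CPM in vector fed and 466, 318 and 49.1 CPM in TRPML3 fed libraries, with number 3 the lowest in both.

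Of 25 targets of FOXO factors, which growth factor withdrawal releases, 0 were above and 1 below 0 at an unadjusted p under 0.05, and the median was -0.047. The 1 was RICTOR, a scaffold of mTORC2. It had 67.2, 65.4 and 34.1 CPM in vector fed, 56.1, 62.4 and 102 CPM in vector starved, 83.2, 106 and 86.5 CPM in TRPML3 fed and 57.5, 33.0 and 72.5 CPM in TRPML3 starved libraries. Its interaction was -1.16 ± 0.50 (unadjusted p = 0.0422), or -0.91 without number 3 (edgeR unadjusted p = 0.0662), and IRS1, the insulin receptor substrate, had -1.01 ± 0.58. Without number 3 IRS1 had -1.29 (edgeR unadjusted p = 0.0112).

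The 38 targets of ATF4, the factor of the integrated stress response, had a median of 0.011 (-0.017 with library size as the only scaling) and 0 genes at an unadjusted p under 0.05, with ATF4 itself at -0.30 ± 0.43 and ASNS (asparagine synthetase) at -0.36 ± 0.39. That count was 1 with the plain replicate block (PCK2, edgeR unadjusted p = 0.0445), against 386 of all 18030 genes. With the block within serum state it was 1 (WARS1, edgeR unadjusted p = 0.0354), against 558. Without number 3 it was 2, against 709. For the 29 cholesterol synthesis genes the median was 0.07, or 0.203 without number 3, with 1 gene below 0 at an unadjusted p under 0.05. This was EBP, a sterol isomerase, which had 12.5, 10.0 and 11.1 CPM in vector fed libraries and 16.7 to 33.2 CPM in the other 9, the vector fed libraries being the lowest of the 12. Its interaction was -1.20 ± 0.40 (unadjusted p = 0.0128), or -1.18 without number 3 (edgeR unadjusted p = 0.0743). The 25 endoplasmic reticulum chaperone genes had a median of 0.049, or -0.062 without number 3, and 1 gene below 0, the oxidoreductase ERO1A (-6.52 ± 2.45, unadjusted p = 0.0227). ERO1A had 0.818, 1.08 and 1.27 CPM in TRPML3 starved libraries, but also 0.918 CPM in vector fed 3, 1.68 CPM in vector starved 2 and 4.70 CPM in TRPML3 fed 3, against 96.1 to 235 CPM in the other 6. HSPA5 (BiP), the main chaperone, had 0.05 ± 0.70.

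Among 55 neuronal development genes, which HEK293T cells partly express, 1 was above and 0 below 0 at an unadjusted p under 0.05, and the median was -0.185. That median was 0.011 without vector fed replicate 3. The gene was NCAM1, a neural adhesion molecule, at 1.17 to 5.88 CPM over the 12 libraries (1.84 ± 0.59, unadjusted p = 0.0102). The 13 protein genes of the mitochondrial genome had a median of 0.075, with 0 at an unadjusted p under 0.05. Without number 3 the median was -0.392, and the medians in numbers 1, 2 and 3 alone were 0.043, -1.217 and 0.413. The share of counts from all rows of the mitochondrial genome was 2.81 to 4.40% in the libraries of number 1, 1.05 to 2.52% in number 2 and 4.83 to 5.70% in number 3, and its part in the other results was not tested. With libraries or a replicate number left out, the median changed sign in 10 of the 12 lists, all but lysosome (-0.118 to -0.003) and autophagy (-0.2 to -0.025). Those lists did not keep 1 sign across the numbers either. In numbers 1, 2 and 3 alone the medians were 0.027, -0.084 and -0.11 for lysosome. For autophagy they were -0.104, 0.063 and -0.023. Across the 12 lists, 0 members were called by the quasi-likelihood test over all genes, while the DESeq2 Wald test called CCN2 of the serum response list.

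**Figure D4:**
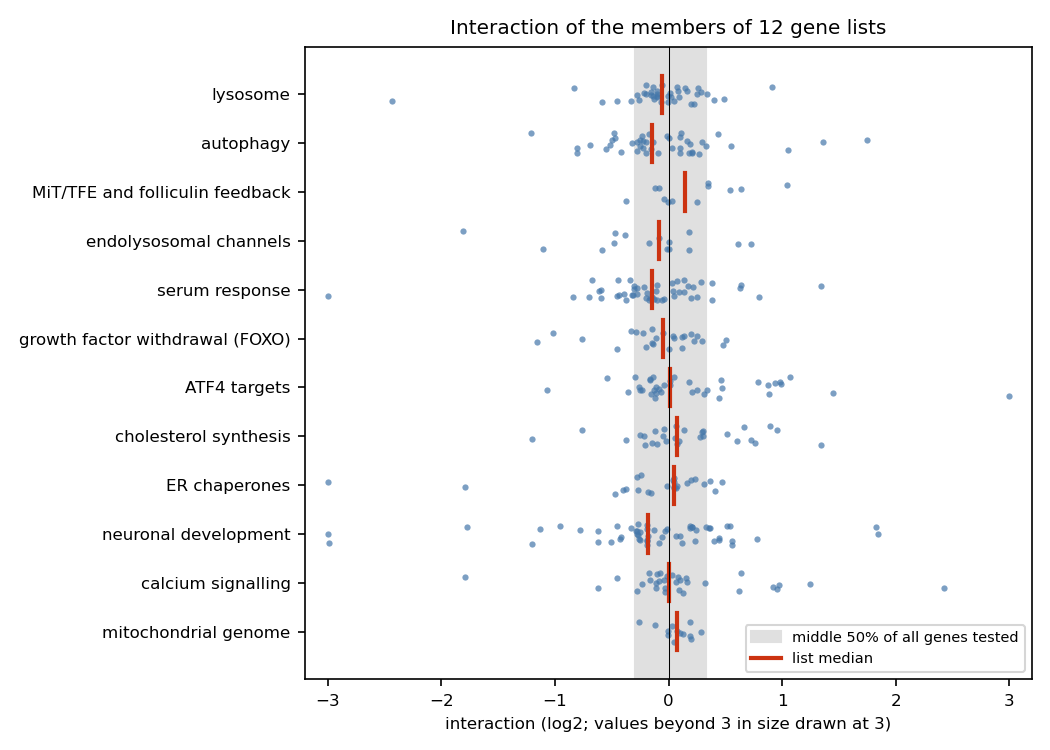
Interaction (log2, horizontal) of each tested member of 12 gene lists (points, values beyond 3 in size drawn at 3) with the list median (red) and the middle 50% of all genes tested (grey band, -0.296 to 0.326). The band shows single genes and is no test of a list, and the 12 medians run from -0.185 (neuronal development) to 0.141 (MiT/TFE and folliculin feedback).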

How the data were processed

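The authors deposited a table of raw counts with 41878 gene rows, by Ensembl identifier and symbol, and a table of normalized signal with 23252 rows. In every one of the 12 libraries the deposited signal was the count over 1 fixed size factor (to within 4.99e-08%). FastQC, fastp, HISAT2, StringTie, DESeq2 and GRCh38 are named in the submitters' processing notes without versions or roles. The counting step, its annotation and its use of strand are not given in the sources used here, so overlapping, antisense and near-identical genes are uncertain. Gene coordinates are from GENCODE 29 (GRCh38), matched by identifier.

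Counts were tested with edgeR 4.0.16 in R 4.3.3 (TMM, filterByExpr on group, robust quasi-likelihood fit of 4 group coefficients to 12 libraries, 8 residual degrees of freedom, Benjamini-Hochberg adjustment, called under 0.05). Standard errors came from the log2 fold change and its F, and 95% intervals from the same fit. Alternatives used DESeq2 1.42.0 and limma 3.58.1, and the pipeline was tested on simulated data. Library totals of 33101540 to 43700547 make 3 counts, taken as a floor, at most 0.0906 CPM, and intervals cover the spread between libraries.

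Named genes were MCOLN3, then the 12 with the smallest p in each direction among genes of at least 5 CPM with the same sign in all 3 replicate numbers (log2 of CPM + 1), then every DESeq2 call of at least 5 CPM, then up to 3 of smallest p per list. The members, the rule and the 12 gene lists were chosen with earlier results of these data known.

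No 2 libraries agreed within counting noise (chi-square per degree of freedom at least 140 in 66 pairs). Same-numbered vector and TRPML3 libraries deviated together from their group means within a serum state (r from 0.106 to 0.363), so the numbers were taken to pair them there, on that evidence alone. Between fed and starved libraries of 1 plasmid r was -0.0864 to 0.00933. Values of a single number therefore join fed and starved libraries by label only. The main test used no pairing, and replicate blocks were run only as alternatives. The signal table served only as an alternative. Values of some list and marker genes are not reported here.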

Additional observations from a re-analysis of the deposited data

Results flagged for a closer look

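In 15 genes of at least 5 CPM the starvation effect differed between TRPML3 and vector cells at an adjusted p under 0.05 in the DESeq2 Wald test of the interaction, with the same sign in replicate numbers 1, 2 and 3. None passed in edgeR's quasi-likelihood test, where the smallest adjusted p was 0.978, so these differences depend on the test. The adjusted p in DESeq2 was 3.63e-05 for IMMT, 0.000118 for RSL1D1 and 0.000564 for CBX6. It was 0.00361 for COL27A1, 0.00802 for ZNF518A, 0.0116 for TAOK1, 0.0118 for COL25A1 and 0.0118 for MPDZ. The rest were HLCS (0.0125), CIR1 (0.0174), STOX2 (0.0236), NCKAP1 (0.0318), CRYBB2P1 (0.0394) and EXOG (0.0418). GAB2 had an adjusted p of 0.000118 with vector starved libraries at 0 throughout, and its fitted fold is not given for that reason. Without number 3 its edgeR unadjusted p was 0.9999, against 0.0335 with all 12 libraries. The edgeR interaction was below 0 for RSL1D1 (-2.16), TAOK1 (-1.37), NCKAP1 (-1.24), ZNF518A (-2.72) and STOX2 (-1.98), and above 0 for the other 10.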

How the results depend on the processing

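The count of 0 called genes became 27 with the DESeq2 Wald test and 374 at an unadjusted p under 0.05. Leaving out single libraries or replicate numbers gave 0 to 3, with 1 gene without TRPML3 fed 1 (SNX30), 1 without TRPML3 fed 3 (WDR3) and 3 without TRPML3 starved 1 (FRRS1, PANX1 and ZNF670). DESeq2 on numbers 1 and 2 alone, chosen after seeing the data, called 132 genes, while edgeR on the same libraries called 0. The count of 374 became 768 with limma voom quality weights, 677 with no filter, 1064 with DESeq2 on numbers 1 and 2 alone, and 363 to 723 with libraries or numbers left out, 723 being without number 3. A replicate block (the number as a term) gave 0 calls and 386 genes at an unadjusted p under 0.05. With a replicate block within serum state, added after seeing the data, these were 0 and 558. Neither block changed the call of a named gene in edgeR. The signs were partly fixed in advance, since 24 of the 66 named genes were chosen for the same sign in all 3 numbers. A number taken alone was not among the alternatives, and some genes reversed there, such as MCOLN3 (-0.91 in number 3). Under every alternative run, 62 of the 66 kept their sign. The exceptions were 3 mitochondrial genes and a readthrough. These were the interaction of MT-ND4 (voom -0.30, limma-trend -0.07725, replicate block -0.0362 and -0.0401 within serum state), the interaction of MT-CYB (-0.62, -0.26, -0.23 and -0.23 in that order, and -0.43 with DESeq2 on numbers 1 and 2), the interaction of MT-ND3 and the interaction of SENP3-EIF4A1. With libraries left out they ranged from -0.57 to 0.89 for MT-ND4, -0.56 to 0.67 for MT-CYB and -1.27 to 0.68 for MT-ND3, and SENP3-EIF4A1 went to -0.16 without TRPML3 starved 2 (highest 15.29). The cause was not tested. List medians moved in 39 of 240 values. A move was a shift of at least the SD of the list's medians in numbers 1, 2 and 3 alone, which rests on only 3 values. The sign of the median changed with library size as the only scaling for ATF4 targets (-0.017) and calcium signalling (-0.024), and with DESeq2 size factors for calcium signalling (-0.004). The sign of the median turned with libraries left out in 10 of 12 lists, among them cholesterol synthesis (-0.01 without TRPML3 starved 3), channels (0.046 without vector fed 1) and FOXO targets (0.235 without vector fed 3). At an unadjusted p under 0.05, the serum-state block gave 2 genes in the FOXO list, 2 in the calcium list and 1 in the ATF4 list. These stood in place of 1, 0 and 0. Over all 18030 genes tested that block gave 558. The common biological coefficient of variation over all genes tested was 0.527, and depth was not varied.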
